A study of Mus musculus with 9 samples.

Results

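Oxidative phosphorylation (OXPHOS) subunits encoded in the nucleus were followed across 9 libraries of cultured mouse astrocytes. Members were taken by gene symbol alone: the Ndufa, Ndufb, Ndufc, Ndufs and Ndufv families, Sdha to Sdhd, Cycs, the Uqcr genes, the Cox4 to Cox8 families and the Atp5 genes. The rule found 86 members among 18061 listed genes, after 1 symbol marked as a pseudogene was dropped. They comprised 37 genes of complex I, 4 of complex II, 8 of complex III, Cycs, 19 of complex IV and 17 of complex V. Ndufa4 and its paralog Ndufa4l2 carry complex I names and were placed with complex IV, where the Ndufa4 protein is known to sit. The rule itself uses no measured value, though it was chosen with earlier results of these data known.

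The cells were primary cortical astrocytes from WT C57BL/6 pups, and every culture spent its last day in glucose-free medium. Control cultures received nothing else, acetate cultures received 10 mM sodium acetate for that day, and Aβ + acetate cultures received 1 µM amyloid-beta (Aβ) for 5 days with acetate on the last. Each group had 3 libraries, medium was changed on day 11 in culture and RNA was taken on day 12. Aβ without acetate, and medium with glucose, were not analysed here, so an effect of Aβ alone or of glucose loss could not be read. The sample titles call the libraries biological replicates. Nothing in the labels says whether the cultures came from separate litters, so p-values measure only the spread between these libraries.

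The library names have 2 naming styles, which split the samples into library set 1 (control 1, control 2, acetate 1 and Aβ + acetate 1) and library set 2 (control 3, acetate 2, acetate 3, Aβ + acetate 2 and Aβ + acetate 3). What the naming styles stand for is not given, so they are called library sets and nothing more. They stood far apart before any subunit was considered. The 12 listed genes of the endoplasmic reticulum (ER) stress and amino acid response summed to 1926 to 2232 CPM (read counts scaled to library size) in set 1 and to 14773 to 18799 in set 2. The 10 astrocyte markers summed to 8546 to 10057 CPM in set 1 and to 10786 to 12948 in set 2. They did not move together: 6 were higher and 4 lower in set 2, from a log2 of -1.37 to 1.64. All 10 reached a CPM of at least 1 in some library, so the labelled cell type was present by its markers. Fibroblast and meningeal markers summed to 2515 to 2791 CPM and to 974 to 1231, with all 7 lower in set 2, and the 10 microglial markers to 41.8 to 111 and to 147 to 252, with 8 of 9 tested higher. No gene of these lists was at 0 in all libraries.

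In the respiratory chain, complex I oxidises NADH and complex II oxidises succinate, and both pass electrons through ubiquinone to complex III, cytochrome c and complex IV. Complexes I, III and IV pump protons, and complex V lets them return to make ATP. Astrocytes are known for strong glycolysis but hold the whole chain, and acetate can feed it once it is made into acetyl-CoA. The factors NRF1, GABP (an ETS factor) and YY1 are known to bind promoters of many subunit genes.

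Promoters are shown for Sdha and Sdhd, which stood on opposite sides in the set comparison below with the same NRF1 motif, and for Atp5o and Uqcrh, both lower, as examples of the NRF1 and ETS motifs. Sequences are from RefSeq on GRCm38.p6 and run from 250 bases before to 50 bases after the gene start, which 70 of the 86 members matched. Capitals mark the NRF1 motif, which is GCGCA, 1 base of any kind and GCGC, or, in Uqcrh, the ETS motif CCGGAAGT, on either strand. The Sdha window is chr13:74350191-74350490 on the minus strand, the Sdhd window chr9:50603800-50604099 on the minus strand, the Atp5o window chr16:91931581-91931880 on the minus strand and the Uqcrh window chr4:116075021-116075320 on the minus strand.
Sdha: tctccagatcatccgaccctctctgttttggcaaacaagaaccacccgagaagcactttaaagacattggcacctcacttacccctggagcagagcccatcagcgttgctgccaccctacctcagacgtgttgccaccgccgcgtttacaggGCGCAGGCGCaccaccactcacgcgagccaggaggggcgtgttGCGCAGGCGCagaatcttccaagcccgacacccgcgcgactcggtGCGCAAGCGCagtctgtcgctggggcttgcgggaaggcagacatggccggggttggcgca
Sdhd: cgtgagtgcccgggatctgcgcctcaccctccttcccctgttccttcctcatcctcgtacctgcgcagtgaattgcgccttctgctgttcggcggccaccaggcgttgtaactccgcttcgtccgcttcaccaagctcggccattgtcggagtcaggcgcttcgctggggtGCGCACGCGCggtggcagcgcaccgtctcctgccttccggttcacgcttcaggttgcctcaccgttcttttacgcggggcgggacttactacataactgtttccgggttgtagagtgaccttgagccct
Atp5o: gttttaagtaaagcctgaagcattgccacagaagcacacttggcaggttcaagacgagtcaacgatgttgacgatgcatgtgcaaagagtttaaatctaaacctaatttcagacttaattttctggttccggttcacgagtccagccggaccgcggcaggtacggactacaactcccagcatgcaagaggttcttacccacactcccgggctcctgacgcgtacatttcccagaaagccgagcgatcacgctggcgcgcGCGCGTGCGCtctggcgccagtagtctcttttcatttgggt
Uqcrh: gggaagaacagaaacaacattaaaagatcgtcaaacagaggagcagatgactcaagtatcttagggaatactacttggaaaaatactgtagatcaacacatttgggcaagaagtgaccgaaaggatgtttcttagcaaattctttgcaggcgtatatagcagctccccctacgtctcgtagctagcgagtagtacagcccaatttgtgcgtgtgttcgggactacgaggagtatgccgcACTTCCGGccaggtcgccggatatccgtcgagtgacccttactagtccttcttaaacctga

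Sdha held 3 NRF1 motifs and was higher in set 2, while Sdhd and Atp5o held 1 each and were lower. These genes were picked with their set differences known, so no relation of motif number to direction can be read from them. Over the members with a promoter, 17 of 70 (24.3%) held the NRF1 motif, against 11.1% of 11106 tested genes in the same table. The ETS motif was in 5 of 70 (7.14%) against 8.64%, and the YY1 motif AAGATGGC, searched on both strands, in 10 of 70 (14.3%) against 4.94%. Of the 17 members with an NRF1 motif, 12 were lower in set 2, 3 were higher and 2 did not pass the test. Of the 5 with an ETS motif, 4 were lower, 0 higher and 1 did not pass. Among the 10 with a YY1 motif, 7 were lower, 0 higher and 3 did not pass. Without a YY1 motif, 38 of 60 were lower, 4 were higher and 16 did not pass, and 2 were not tested. Of the 53 without an NRF1 motif, 33 were lower, 1 was higher and 17 did not pass, and 2 were not tested. A match of letters is a description of these windows and shows no binding.

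Levels between genes were compared per kilobase of transcript (CPM per kb, mean of the 9 libraries). Atp5b, the catalytic β subunit of complex V, was highest at 365 CPM per kb. Cox4i1, a regulatory subunit of complex IV, followed at 303, Cox6a1 at 220, Atp5a1, the α subunit, at 210 and Cox8a at 201. At the low end, 4 members failed the filter on low values (CPM of at least 1 in at least 3 libraries), and 82 were tested. Ndufa4l2, a paralog of Ndufa4 known from hypoxia, had 0.361 to 1.63 CPM, and Cox4i2, the lung and hypoxia isoform of Cox4i1, had 0.241 to 0.919. Cox8b, a heart and muscle isoform, had 0 to 0.367 CPM and Cox7b2, an isoform of Cox7b, had 0 to 0.122. Cox8c was not analysed here, and no gene of the mitochondrial chromosome was listed, so subunits encoded there were not analysed here either.

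Subunit transcripts took a smaller share of set 2 libraries. All 86 members summed to 7136, 6844, 6458 and 7124 CPM in control 1, control 2, acetate 1 and Aβ + acetate 1. In control 3, acetate 2, acetate 3, Aβ + acetate 2 and Aβ + acetate 3 they summed to 5393, 5641, 5463, 5497 and 5471 CPM. Every set 2 library lay below every set 1 library, and acetate 1 was the lowest of set 1. The means were 6891 ± 319 CPM (SD, n = 4) and 5493 ± 91.1 CPM (SD, n = 5), a sum 20.3% lower in set 2. Because CPM are shares, and because the libraries are bulk cultures, fewer cells of a type and less RNA per cell cannot be told apart.

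**Figure D1:**
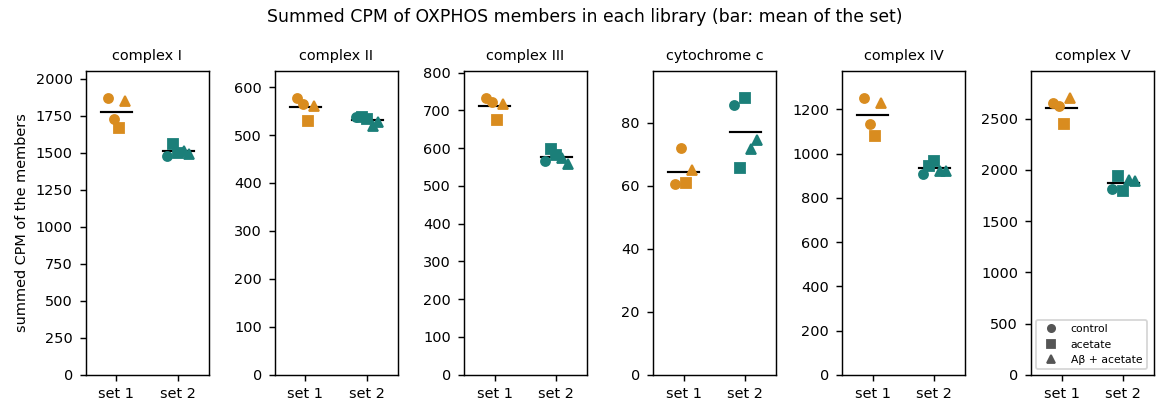
Summed CPM of the members of each complex in every library, by library set, with a horizontal bar at the mean of each set and a marker shape for each treatment group. The sums of complexes I, III, IV and V separate the sets, with complex V at 2444 to 2699 CPM in set 1 and 1795 to 1936 in set 2, while treatment groups mix within a set.

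The complexes differed in how far their sums lay apart. Complex V was 28.3% lower in set 2 (2604 ± 111 against 1867 ± 60.4 CPM), complex IV 20.5% lower (1173 ± 81.1 against 933 ± 22.3), complex III 19.1% lower (712 ± 25.6 against 576 ± 14.6) and complex I 15.2% lower (1779 ± 96.5 against 1509 ± 29.1; SD, n = 4 and 5 throughout). Complex II was 4.89% lower, at 558 ± 20.1 against 531 ± 7.83 CPM (SD, n = 4 and 5), and its ranges overlapped. Cycs went the other way, at 64.4 ± 5.31 against 76.98 ± 9.39 CPM (SD, n = 4 and 5), also with overlap. These percentages were not tested against each other, and genes with many reads weigh most in a sum. By the median log2 difference of the members the order changed. Complex III stood at -0.49, complex V at -0.39, complex IV at -0.30, complex I at -0.24 and complex II at -0.15.

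Gene by gene, 52 of the 82 tested members were lower in set 2, 8 were higher and 22 did not pass the test (limma on log2(CPM + 1) with group as covariate, adjusted p under 0.05 over 14058 genes). The background was 32.3% of all tested genes lower and 38.4% higher. The median log2 difference of the members was -0.30, and that of all genes tested was 0.050. With no model, all 5 set 2 libraries lay below all 4 set 1 libraries for 48 members and above them for 7, where 29.5% and 34.1% of all tested genes did so. Of the 52 lower members, 51 were lower in set 2 within controls, within acetate and within Aβ + acetate. Ndufb2 was the exception. Without Aβ + acetate 1, 39 members were lower, and without control 3, 44. The 8 higher members were higher within all 3 groups, but their number depended on single libraries: it was 5 without control 2, acetate 3 or any of the Aβ + acetate libraries, and 4 without acetate 1. It was also 4 under median-of-ratios scaling, while 57 were lower. Cox6a2, counted among the higher members, met the filter on low values only through its set 2 libraries.

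**Figure D2:**
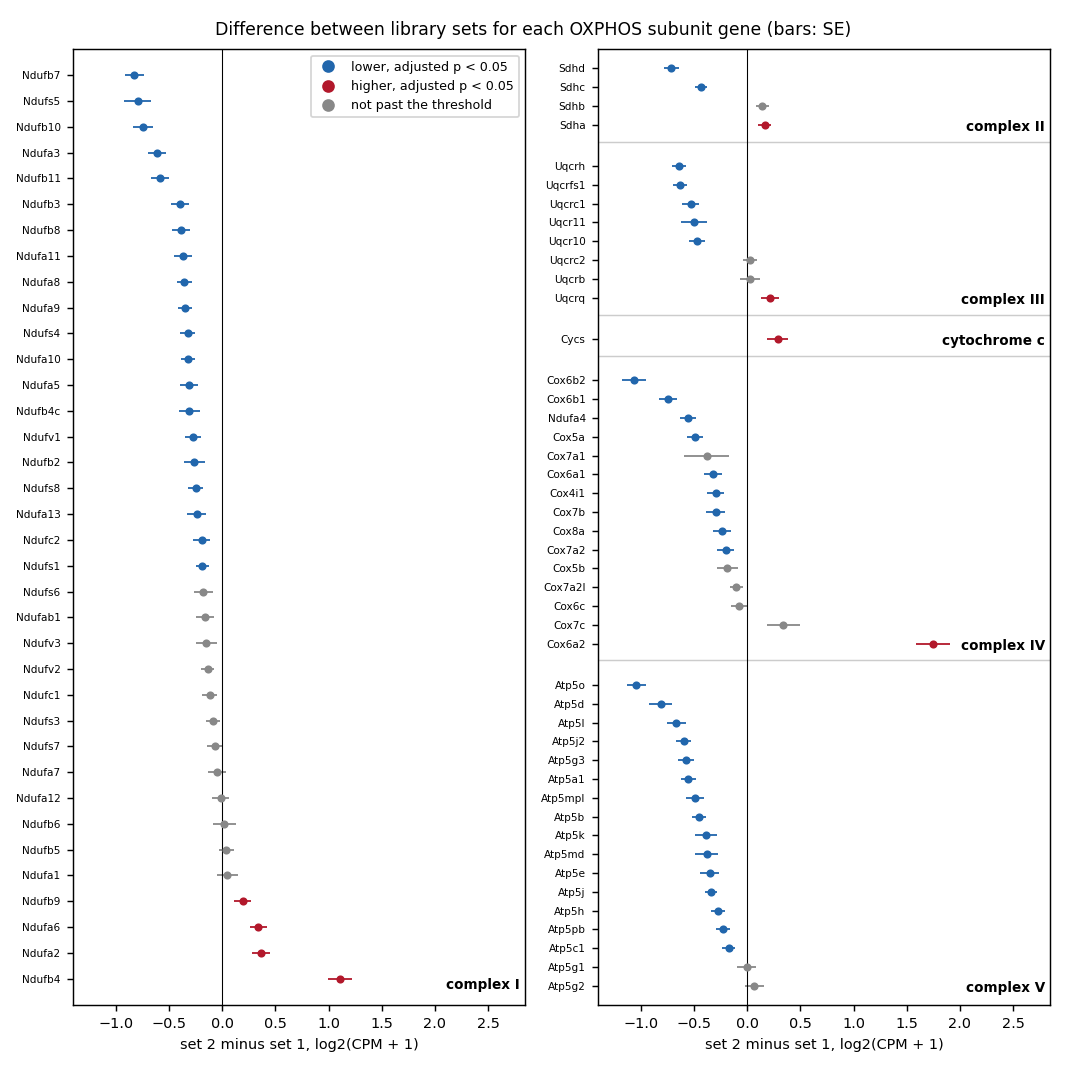
Difference between library set 2 and library set 1 on the log2(CPM + 1) scale for the tested members, 1 of which is not drawn, ordered within each complex, with bars for the SE and colour for the limma call. Most points lie left of 0, 15 of 17 in complex V are called lower, and Cox6a2 and Ndufb4 lie farthest to the right.

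Subunit transcripts are short, so length and abundance were set beside the call shares. Members had a median transcript of 725 bases, against 2752 bases over the 13850 tested genes with a length. Among all genes with a mean of at least 20 CPM, 32.4% were lower and 40.2% higher. Among all genes of at most 2000 bases, 32.0% were lower and 34.7% higher. Both limits together gave 36.8% lower and 33.0% higher, against 43 lower and 4 higher of the 63 members within both limits. Across all 13850 genes, the set difference and transcript length had a Spearman rho of 0.003, a description across genes that are not independent.

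Complex V makes ATP with a catalytic head of α and β subunits, a rotor with a ring of c subunits, and a peripheral stalk. In set 2, 15 of its 17 members were lower and 0 higher, with a median log2 difference of -0.39. Atp5o, the stalk protein that confers oligomycin sensitivity, had 135, 129, 122 and 134 CPM in control 1, control 2, acetate 1 and Aβ + acetate 1. It had 54.2, 72.6, 58.5, 65.9 and 69.9 CPM in control 3, acetate 2, acetate 3, Aβ + acetate 2 and Aβ + acetate 3. The sets did not overlap, and the gene was 50.6% lower (log2 -1.04, SE 0.09, limma adjusted p = 1.05e-06). Exons of Atp5o overlap those of Donson on the same strand, which had 12.5 to 15.8 CPM, and Atp5o has 1 near-identical copy (at least 95% identity over at least 80% of the coding sequence), which the counting could split.

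The catalytic pair moved in the same direction. Atp5b had 769 to 850 CPM in set 1 and 573 to 623 in set 2 (log2 -0.45, SE 0.07, limma adjusted p = 7.5e-05). Atp5a1 had 622 to 686 and 417 to 474 CPM (log2 -0.55, SE 0.07, limma adjusted p = 2.05e-05). In the central stalk, Atp5d, the δ subunit, was lower by a larger amount (log2 -0.81, SE 0.11), while Atp5c1, the γ subunit, was lower by a log2 of -0.18 (SE 0.06) and lost the call without control 3 or without acetate 1. Atp5l and Atp5j2, small membrane subunits, stood at -0.67 (SE 0.09) and -0.60 (SE 0.07), and Atp5l has 8 near-identical copies.

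The same mature c subunit of the rotor ring is encoded by Atp5g1, Atp5g2 and Atp5g3, which differed. Atp5g3 had 134, 146, 123 and 138 CPM in set 1 and 85.3, 94.5, 96.7, 86.7 and 88.2 in set 2, with no overlap (log2 -0.57, SE 0.07, limma adjusted p = 3.24e-05). Atp5g1 had 21.5 to 26.4 and 21.4 to 26.0 CPM (log2 -0.01, SE 0.09), and Atp5g2 had 29.7 to 38.8 and 34.4 to 38.8 CPM (log2 0.07, SE 0.09), neither past the threshold. Per kilobase, Atp5g3 made up 71.1 to 77.4% of the c-subunit transcripts in set 1 and 63.0 to 65.9% in set 2, and Atp5g2 19.3 to 25.2% and 29.3 to 32.4%. Atp5g1 and Atp5g2 also have near-identical copies.

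Complex III passes electrons from ubiquinol to cytochrome c, and 5 of its 8 members were lower, 1 higher and 2 not past the threshold, with a median log2 difference of -0.49. Uqcrfs1, the Rieske iron-sulfur protein, had 123, 138, 115 and 119 CPM in set 1 and 80.4, 79.4, 77.1, 75.4 and 72.3 in set 2. All set 2 values were below all set 1 values (log2 -0.64, SE 0.07, limma adjusted p = 4.77e-06). Uqcrh, the acidic hinge protein that helps cytochrome c dock, had 69.0 to 75.7 and 43.4 to 47.9 CPM (log2 -0.64, SE 0.07, limma adjusted p = 4.79e-06). Uqcrc1, a core protein, stood at -0.53 (SE 0.08), Uqcr10 at -0.48 (SE 0.08) and Uqcr11 at -0.50 (SE 0.13).

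The partner core protein did not follow. Uqcrc2 had 120, 135, 130 and 126 CPM in set 1 and 132, 132, 130, 133 and 123 in set 2, an overlapping spread (log2 0.03, SE 0.06, limma adjusted p = 0.716). The ratio of Uqcrc2 to Uqcrc1 within a library, which no scaling of the library can move, was 0.713 to 0.866 in set 1 and 1.06 to 1.30 in set 2. Uqcrb, a small subunit near the quinone site, stood at 0.03 (SE 0.09). Uqcrq, another small subunit, was the higher member (log2 0.21, SE 0.08, limma adjusted p = 0.0419), and it lost the call in 12 of 19 alternatives, among them leaving out any library except control 1.

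Cycs, the soluble electron carrier, had 60.4, 71.8, 60.8 and 64.8 CPM in set 1 and 85.5, 65.5, 87.7, 71.7 and 74.5 in set 2. The ranges overlapped, since acetate 2 and Aβ + acetate 2 lay below control 2 (log2 0.29, SE 0.10, limma adjusted p = 0.0183). Without acetate 1, without control 3 or under median-of-ratios scaling (log2 0.24, limma adjusted p = 0.0547) the gene did not pass. Cycs has 4 near-identical copies in the annotated transcripts.

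Complex II joins a soluble catalytic pair, Sdha and Sdhb, to a membrane anchor, Sdhc and Sdhd, and these pairs differed. Sdhd had 82.9, 77.9, 68.0 and 69.7 CPM in set 1 and 44.3, 44.0, 45.7, 40.6 and 43.9 in set 2, 41.4% lower and without overlap (log2 -0.71, SE 0.07, limma adjusted p = 2.84e-06). Sdhc had 131 ± 1.89 CPM in set 1 and 96.7 ± 2.96 in set 2 (SD, n = 4 and 5), also lower (log2 -0.43, SE 0.06, limma adjusted p = 4.74e-05). Sdha, the flavoprotein that oxidises succinate, had 301, 296, 275 and 299 CPM in set 1 and 331, 324, 327, 316 and 322 in set 2. Its sets did not overlap either, in the other direction (log2 0.16, SE 0.06, limma adjusted p = 0.0335). Sdhb, the iron-sulfur protein, had 57.7 to 62.7 and 65.6 to 68.3 CPM and did not pass (log2 0.14, SE 0.06, limma adjusted p = 0.0513).

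The size of the Sdha difference was small enough for the scaling to matter: median-of-ratios scaling put it at 0.12 with an adjusted p of 0.117, quantile normalization at 0.13 with 0.0734, and the call was also lost without control 2, control 3, acetate 1, acetate 3 or any Aβ + acetate library (limma). The ratio of Sdha to Sdhd within a library does not depend on scaling, and was 3.63 to 4.29 in set 1 and 7.16 to 7.78 in set 2.

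Complex I, the largest, had 21 of 37 members lower, 4 higher and 12 not past the threshold, with a median log2 difference of -0.24 (-0.15 without Aβ + acetate 1). Its 7 nuclear-encoded core subunits carry the flavin and the iron-sulfur clusters that lead electrons from NADH to ubiquinone. Of these, 4 were lower, 0 higher and 3 not past the threshold (median -0.19). Ndufv1, which binds NADH and the flavin, had 76.9 to 90.1 and 65.3 to 73.6 CPM (log2 -0.27, SE 0.07), and Ndufs1, which holds several clusters, 108 to 120 and 99.0 to 104 (log2 -0.19, SE 0.06). Ndufs1 lost the call without acetate 1 or without Aβ + acetate 1 or 3.

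The 30 accessory subunits support assembly and stability and spread more widely, from a log2 of -0.83 to 1.11, with 17 lower, 4 higher and 9 not past the threshold (median -0.25). Ndufb7, at the membrane arm, had 48.6, 40.1, 39.5 and 45.1 CPM in set 1 and 21.0, 26.3, 24.0, 26.1 and 24.7 in set 2. No set 2 value reached a set 1 value (log2 -0.83, SE 0.09, limma adjusted p = 9.09e-06). Ndufb10 stood at -0.74 (SE 0.09), Ndufa3 at -0.61 (SE 0.08) and Ndufb11 at -0.59 (SE 0.08). On the higher side, Ndufa6 had 42.2 to 52.7 and 58.5 to 62.0 CPM (log2 0.34, SE 0.08) and Ndufa2 26.8 to 32.1 and 34.7 to 41.6 (log2 0.37, SE 0.08), both without overlap. Ndufb9 had 36.3 to 41.5 and 41.5 to 50.3 CPM (log2 0.19, SE 0.08, limma adjusted p = 0.0495), and lost the call without control 2, acetate 1, acetate 3 or any Aβ + acetate library, and in 12 of 19 alternatives in all, both other scalings among them. Exons of Ndufa2 overlap Tmco6 on the other strand, which had 8.95 to 12.4 CPM.

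Complex I also held a near-identical pair whose genes differed between sets in opposite directions. Ndufb4 (mm10 chr16:37647602-37654369, minus strand) had 3.03, 3.27, 3.38 and 2.47 CPM in set 1 and 7.95, 6.80, 9.29, 6.82 and 7.01 in set 2, and was higher (log2 1.11, SE 0.11, limma adjusted p = 4.32e-06). Its near-identical copy Ndufb4c (mm10 chr15:73809458-73809934, minus strand), also a member by symbol, had 29.7 to 41.1 CPM in set 1 and 23.6 to 29.0 in set 2, and was lower (log2 -0.31, SE 0.10, limma adjusted p = 0.0169), a call lost without control 3. Their sum was 33.1 to 44.2 CPM in set 1 and 32.9 to 35.8 in set 2, so the ranges overlapped. How reads were divided between the copies was not tested, so the separate values of this pair are uncertain.

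Ndufs5, an accessory subunit, is paired in the same way with Ndufs5-ps. It had 14.2, 12.4, 9.38 and 12.7 CPM in set 1 and 7.21, 4.62, 4.27, 9.61 and 6.12 in set 2 (log2 -0.79, SE 0.13, limma adjusted p = 0.00018). Ndufs5-ps had 31.4 to 37.1 and 35.4 to 41.3 CPM, and the sum of both was 42.1 to 51.3 and 42.6 to 46.3, again overlapping. Of the 85 members that could be searched, 22 had a near-identical copy. With a copy, 11 of 22 were lower and 2 higher. Without one, 40 of 59 tested members were lower and 6 higher. Exons of 16 members overlap those of another listed gene, and 8 of the 16 were lower and 1 higher.

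**Figure D3:**
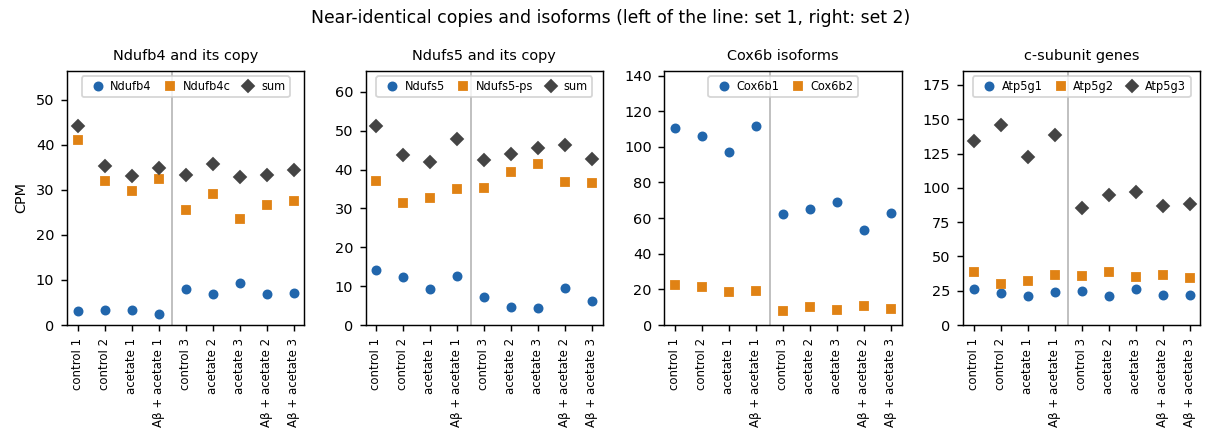
CPM of near-identical copies and of isoforms in every library, with set 1 left of the line and set 2 right of it. Ndufb4 and Ndufs5 change between sets while their sums with a copy keep overlapping ranges, Cox6b1 and Cox6b2 fall together, and Atp5g3 falls while Atp5g1 and Atp5g2 stay at 21.4 to 38.8 CPM.

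Complex IV reduces oxygen, and its nuclear-encoded subunits surround a core that the mitochondrial chromosome encodes. Of its 15 tested members, 9 were lower, 1 higher and 5 not past the threshold, with a median log2 difference of -0.30. Cox6b1, which faces the intermembrane space, had 111, 106, 96.9 and 112 CPM in set 1 and 62.4, 64.8, 69.0, 53.5 and 63.0 in set 2. The sets were far apart (log2 -0.75, SE 0.08, limma adjusted p = 1.02e-05). Its isoform Cox6b2, known from testis, had 18.6 to 22.4 and 7.77 to 10.7 CPM (log2 -1.06, SE 0.11, limma adjusted p = 5.68e-06). Per kilobase, Cox6b2 was 15.99 to 18.5% of the pair in set 1 and 12.2 to 18.3% in set 2, which overlapped.

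Ndufa4, which was long counted with complex I, had 102 to 111 and 66.6 to 79.3 CPM (log2 -0.56, SE 0.07, limma adjusted p = 3.7e-05). Cox5a, a matrix-side subunit, stood at -0.49 (SE 0.08), Cox6a1 at -0.32 (SE 0.08), Cox4i1 at -0.30 (SE 0.08) and Cox8a at -0.24 (SE 0.08). Cox4i1 lost the call without Aβ + acetate 1, and Cox8a without control 3 or without Aβ + acetate 1 or 2. Cox7a2 stood at -0.20 (SE 0.08) and kept its call in 12 of 19 alternatives. Its paralog Cox7a2l had 113 to 129 and 110 to 116 CPM and did not pass (log2 -0.11, SE 0.06, limma adjusted p = 0.145). Cox7a1, the muscle isoform, had 3.59 to 5.49 and 2.17 to 5.95 CPM and did not pass.

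The complex IV gene on the higher side was the heart and muscle isoform Cox6a2 (mm10 chr7:128205435-128206367, minus strand). It had 0.140, 0.0451, 0.151 and 0.0816 CPM in set 1 and 2.28, 2.21, 4.50, 2.93 and 2.53 in set 2. Every set 2 library was above every set 1 library, at a low level (log2 1.75, SE 0.16, limma adjusted p = 2.03e-06). Cox6a2 met the filter on low values only through its set 2 libraries. The filter thus favoured a higher call, and the p is no support for one. Because the set 1 values are so low, the fitted size ran from 0.60 to 3.78 with the pseudocount. Against Cox6a1, Cox6a2 was 0.028 to 0.097% of the pair per kilobase in set 1 and 1.48 to 3.31% in set 2. The 4 listed striated muscle markers summed to 1.53 to 2.39 CPM in set 1 and 1.58 to 2.44 in set 2. Cox7c had 2.10 ± 0.745 and 2.60 ± 0.473 CPM (SD, n = 4 and 5) and did not pass. Its copies Gm12338 and Gm10012 had 82.1 to 118 and 2.13 to 19.0 CPM over all libraries, and the sum of the 3 genes was 104 to 123 CPM in set 1 and 98.5 to 108 in set 2.

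Lists of other mitochondrial genes were set beside the subunits in the same comparison. Beside the background of 38.4% of all tested genes higher and 32.3% lower, these lists are given by their counts alone. Of 45 tested assembly factors, which build the complexes, 15 were higher and 9 lower (median log2 0.11). Surf1, needed for complex IV assembly, had 25.2 to 28.7 CPM in set 1 and 42.0 to 44.3 in set 2 (log2 0.67, SE 0.07). Cox18, which inserts a complex IV subunit into the membrane, stood at 0.78 (SE 0.09), and Cox19, a copper-handling factor, at -0.95 (SE 0.10). Of 78 mitochondrial ribosomal proteins, 27 were higher and 21 lower (median 0.046), with Mrps18b at 1.18, Mrpl34 at -0.86 and Mrpl18 at -0.77.

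Of 19 tested regulators of mitochondrial biogenesis, 11 were higher and 2 lower (median log2 0.28). Mterf3, a factor of mitochondrial transcription and ribosome assembly, stood at 1.02 (SE 0.09), Tfb2m, a mitochondrial transcription factor, at 0.83 (SE 0.07) and Polg, the mitochondrial DNA polymerase, at -0.81 (SE 0.07). Carriers and other respiratory genes were lower in 9 of 15 and higher in 3 (median -0.26), with Ckmt1, mitochondrial creatine kinase, at -1.65 (SE 0.12), Etfb at -0.81 (SE 0.08) and Etfdh at -0.67 (SE 0.06). Genes of the mitochondrial stress response were higher in 8 of 11 and lower in 1 (median 0.25), and all 12 of the ER stress and amino acid list were higher (median 3.72). The part of these stress genes, and of the fibroblast and microglial markers given above, in the subunit difference was not tested. A difference between lists was not tested either.

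**Figure D4:**
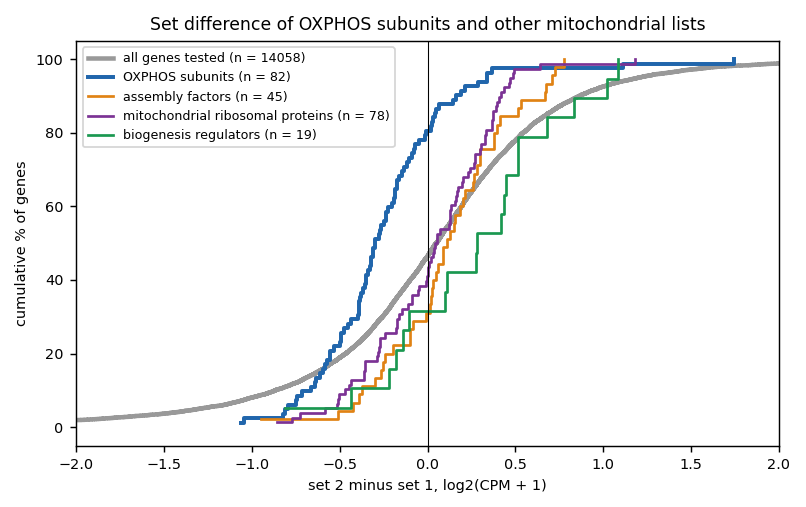
Cumulative percent of genes against the set 2 minus set 1 difference on the log2(CPM + 1) scale, for all 14058 tested genes, the 82 OXPHOS subunits, 45 assembly factors, 78 mitochondrial ribosomal proteins and 19 biogenesis regulators, with the axis limited to 2 either side of 0. The subunit curve lies left of the other drawn curves near its median of -0.30, and the ribosomal protein curve has its median at 0.046. Carriers and other respiratory genes, with a median of -0.26, are not drawn.

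The study's own comparisons asked what acetate did to glucose-deprived astrocytes and what Aβ exposure changed in its presence. No subunit passed in any of them: 0 of 82 members were called for acetate against control, for Aβ + acetate against acetate or for Aβ + acetate against control (limma, library set as covariate). The background was 0.0% of all genes in either direction in each comparison. At an unadjusted p under 0.05 there were 2, 1 and 0 members, against 453, 436 and 505 of 14058 genes. Member medians were -0.022, 0.026 and 0.011 on the log2 scale, and those of all genes -0.023, 0.020 and -0.005. Simulated shifts of 1.5-fold were recovered in 56%, 50% and 50% of genes in these comparisons, and of 2-fold in 92%, 90% and 86%, so smaller changes could be missed.

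By complex, the group sums overlapped. Complex V summed to 2362 ± 476 CPM in controls, 2058 ± 342 with acetate and 2164 ± 463 with Aβ + acetate, complex I to 1692 ± 196, 1576 ± 85.8 and 1618 ± 201, and complex IV to 1098 ± 173, 997 ± 71.8 and 1025 ± 178 (SD, n = 3 each). Complex III summed to 674 ± 92.5, 617 ± 49.8 and 617 ± 87.5 CPM and complex II to 560 ± 20.6, 534 ± 4.36 and 536 ± 22.4 (SD, n = 3 each). Controls have 2 of 3 libraries in set 1 and each treated group 1 of 3, so these unadjusted sums carry the set difference.

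Ndufs5 had the smallest p among members. It had 14.2, 12.4 and 7.21 CPM in controls, 9.38, 4.62 and 4.27 with acetate and 12.7, 9.61 and 6.12 with Aβ + acetate. Its acetate values were lowest within each set (log2 -0.55, SE 0.15 against control, and 0.58, SE 0.15 for Aβ + acetate against acetate, with limma adjusted p of 1.00 for both). Summed with Ndufs5-ps it had 51.3, 43.8 and 42.6 CPM in controls, 42.1, 44.0 and 45.6 with acetate and 47.8, 46.3 and 42.6 with Aβ + acetate, which overlapped. Both differences share the acetate libraries.

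The other members with the smallest p in their complex and direction were within the same limits. With acetate these were, on the lower side, Atp5l (-0.24, SE 0.10), Cox7c (-0.36, SE 0.19), Cycs (-0.12, SE 0.11), Sdhd (-0.11, SE 0.08) and Uqcrfs1 (-0.10, SE 0.08). On the higher side they were Ndufv3 (0.16, SE 0.12), Cox6a2 (0.21, SE 0.19), Atp5mpl (0.07, SE 0.10), Uqcrq (0.03, SE 0.10) and Sdhc (0.01, SE 0.07). Against acetate, the Aβ + acetate group had Cox5a at 0.17 (SE 0.09), Atp5j2 at 0.11 (SE 0.08), Ndufb4 at -0.23 (SE 0.13), Cox6a2 at -0.15 (SE 0.19) and Atp5k at -0.09 (SE 0.12). Complex II and III members then stood between -0.04 and 0.03. Against control, it had Ndufs7 at 0.13 (SE 0.09), Cox7a1 at 0.24 (SE 0.26), Atp5o at 0.14 (SE 0.11), Ndufa1 at -0.22 (SE 0.12), Sdhd at -0.16 (SE 0.08), Uqcrfs1 at -0.14 (SE 0.08), Cox7c at -0.32 (SE 0.19) and Atp5j at -0.09 (SE 0.07). All of these are log2 differences from limma with adjusted p near 1.00. Cox7c, Ndufb4, Cycs, Atp5l and Atp5o have near-identical copies, so their separate values are uncertain.

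Within the sets, the member medians of both comparisons with acetate alone changed sign. In set 1, acetate minus control had a member median of -0.11 with 74 of 82 members below 0, and in set 2 a median of 0.033 with 57 of 82 above 0. All genes had medians of -0.048 and -0.004. Aβ + acetate minus acetate had a median of 0.13 with 76 of 82 above 0 in set 1, and -0.036 with 53 below 0 in set 2, where all genes had 0.031 and 0.015. Aβ + acetate minus control, which does not use acetate 1, had a median of 0.021 with 48 of 82 above 0 in set 1 and 0.009 with 43 above 0 in set 2. Acetate 1 is the only acetate library of set 1 and enters both set 1 differences, and it had the lowest member sum of its set, at 6458 CPM. The difference between sets was tested as an interaction: 0 of 82 members and 0 of 14058 genes passed in any comparison, with 2, 1 and 1 members at an unadjusted p under 0.05 and a smallest adjusted p of 0.569 (limma, 3 residual degrees of freedom).

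**Figure D5:**
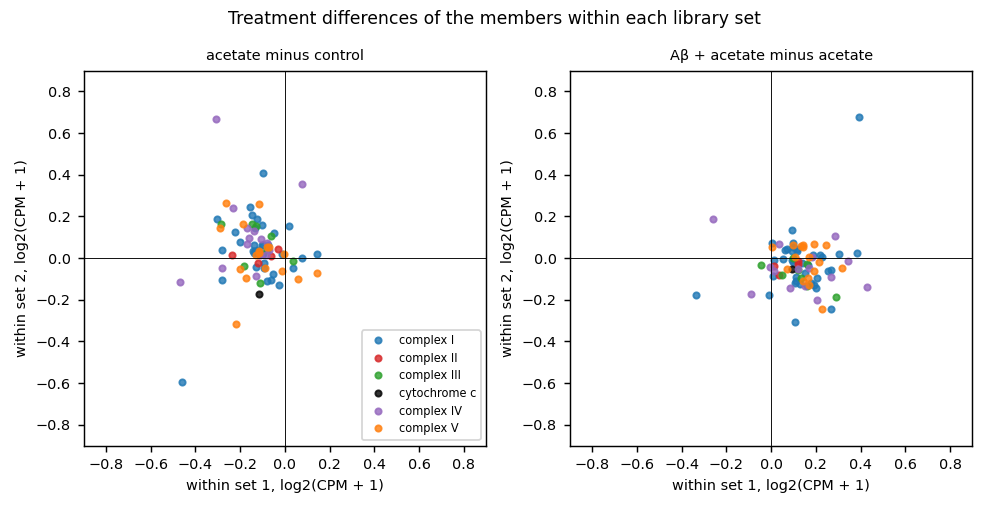
Treatment differences of the 82 tested members on the log2(CPM + 1) scale within set 1 (horizontal) and within set 2 (vertical), for acetate minus control and for Aβ + acetate minus acetate, coloured by complex. Points lie mostly left of 0 in the first panel (74 of 82) and right of 0 in the second (76 of 82), and both horizontal axes rest on the acetate 1 library.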

How the data were processed

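Poly(A)-enriched RNA from cultured astrocytes was sequenced as paired reads, per the labels. The deposited table gives CPM for 18061 genes in each of the 9 libraries, per the file headers. Its making is known only from the submitters' processing notes, which list STAR 2.7.3a, Partek and FastQC beside the build names GRCm39 and mm10. All 86 members overlap their GENCODE M21 gene on mm10, so positions are given on mm10. Whether counting used strand is not given in the sources used here. Depth, read from the smallest step in the deposited CPM, was 22160000 to 57030000 reads. Of low values (up to 20 such reads), 93.4% to 94.4% were whole numbers of reads within a tolerance of 0.1, and the rest were fractions, so reads were not recovered and a count model was not used. The ribosomal precursor Rn45s made up 0.486 to 3.38% of CPM.

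Tests used log2(CPM + 1) of the deposited values for the 14058 genes that reached 1 CPM in 3 or more libraries. limma 3.58.1 (R 4.3.3) was fitted to all 9 libraries with group and library set as terms and 5 residual degrees of freedom, using a trended, robust prior and two-sided tests. Adjustment was by Benjamini-Hochberg over all genes, with a threshold of 0.05. Differences on this scale understate changes of low genes. On simulated data, shifts of 1.5-fold and 2-fold in the set comparison were recovered in 64% and 98% of 50 genes each, with 11 false calls among the unchanged genes. The shifts were made on the log2(CPM + 1) scale, with independent noise and all other genes unchanged. The real set comparison called 5394 genes higher and 4535 lower, so these rates may not carry over to it. The treatment comparisons had 4, 7 and 5 false calls.

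Transcript length was the median of a gene's protein-coding GENCODE M21 transcripts. Named members were those with the smallest p in each complex, direction and comparison, the 4 smallest in each complex between sets, isoform pairs, catalytic members, those that failed the filter, and up to 3 genes of each other list. Members named for a copy, a lost call or a place in a complex were added after their values were seen. The members and lists were chosen with earlier results of these data known. Libraries with the same title number had r over 0.1 in 7 of 9 pairs, and in 1 of 9 once the set was removed. Those with the same library-name number had it in 7 of 7, and in 0 of 7 once the set was removed. All library-name pairs lie within a set, where removing the set pushes r down by construction. The drop therefore cannot show whether the libraries are paired. Alternatives were pseudocounts of 0.1 and 5, filters (any CPM above 0, mean of at least 5), median-of-ratios and quantile scaling, a plain prior, library weights, replicate blocks, no covariate, 6 libraries alone and each library left out. Values of 1 complex I member are not reported here, though it is counted.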

Additional observations from a re-analysis of the deposited data

How the results depend on the processing

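In the 3 treatment comparisons 0 members passed under every alternative run, replicate blocks included. Without the set as covariate, the member median was -0.12 for acetate against control and -0.10 for Aβ + acetate against control, and the replicate block by title number gave the same -0.12 and -0.10. In the set comparison the number of lower members was 39 to 53 with each library left out (39 without Aβ + acetate 1, 44 without control 3) and the number of higher members 4 to 9. Median-of-ratios scaling gave 4 higher and quantile normalization 5. Quantile normalization put the complex II median at -0.20. With each library left out, medians ran from -0.29 to -0.15 for complex I, -0.58 to -0.42 for complex III and -0.48 to -0.32 for complex V. Adding the replicate block by title number to the set left 11 lower and 5 higher members, with medians of -0.21 over all members, -0.32 for complex III, -0.12 for complex IV and -0.054 for Cycs, and Ndufa13 at 0.075. Cycs and Ndufa13 changed sign there. By construction, the set then varies within a title number only among the libraries numbered 2. The set term compares acetate 2 and Aβ + acetate 2 with control 2, less the same difference among the libraries numbered 1 and 3. Outside that block, 36 of 52 lower and 4 of 8 higher calls held under every alternative in which the gene was tested. The 4 higher were Cox6a2, Ndufb4, Ndufa2 and Ndufa6. Cox6a2 met the filter on low values only through its set 2 libraries, so its kept calls are no support. It was tested in 18 alternatives, against 19 for the others. Ndufb4 has a near-identical copy, and its separate values are uncertain. The cause of the other changes was not tested. Values of single subunits with near-identical copies are uncertain.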

Other observations

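The factors whose motifs were searched were measured in the same comparison between sets. Nrf1 had 23.4 to 27.3 CPM in set 1 and 32.2 to 36.8 in set 2 (log2 0.44, SE 0.08). Gabpa, the ETS subunit of GABP, had 111 to 144 and 163 to 194 CPM (log2 0.42, SE 0.09), and its partner Gabpb1 had 18.7 to 22.6 and 24.3 to 27.2 (log2 0.28, SE 0.08). Exons of Gabpa overlap those of Atp5j on the other strand. Yy1 had 131 to 149 and 139 to 155 CPM and did not pass (log2 0.10, SE 0.07, limma adjusted p = 0.190). These were named after their values were seen.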
